A study of Homo sapiens with 15 samples.

Results

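Drug transporters and the genes of xenobiotic metabolism were followed in A549 cells, an established epithelial line from a human lung adenocarcinoma. RNA was measured on Affymetrix arrays. The 10 genes were the efflux pumps ABCB1, ABCC2, ABCC4 and ABCG2, the cytochrome P450 enzymes CYP3A5, CYP1A1 and CYP1B1, the xenobiotic sensors NR1I2 and AHR, and the P450 reductase POR. Every probe set whose annotation named 1 of these genes alone was taken, which gave 19 of the 54675 probe sets on the array and covered 9 of the 10 genes, out of 19775 genes with such a probe set. NR1I2 was not analysed here for lack of a probe set carrying its symbol. Of the 19 probe sets, 16, from 8 genes, passed the filter on low signals and were tested.

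The 15 arrays formed 5 groups of 3. Cells had received match polyamide for 48 hours with dexamethasone for 6 hours, mismatch polyamide for 48 hours with dexamethasone for 6 hours, mifepristone for 48 hours with dexamethasone for 6 hours, dexamethasone alone for 6 hours, or no treatment. All groups share 1 parent line and F12K medium with charcoal-treated serum. Dexamethasone is a synthetic glucocorticoid, mifepristone blocks the glucocorticoid receptor, and polyamides are synthetic molecules that bind the minor groove of DNA. The labels state no dose, and they name no vehicle group for the 48 hours of compound. Whether the 3 arrays of a group came from separate cultures is not stated, so p-values cover only the spread among arrays, and that spread may be technical.

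Drug-metabolising cells handle foreign compounds in steps. Sensors such as AHR, a ligand-activated transcription factor that pairs with ARNT, and NR1I2, the pregnane X receptor, switch on enzyme genes. P450 enzymes then oxidise the compound with electrons that POR passes on from NADPH, and ATP-driven pumps of the ABC family carry the drug or its conjugates out of the cell. In lung epithelium AHR is best known for inducing CYP1A1 and CYP1B1 after exposure to smoke and other aromatic hydrocarbons.

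Promoter windows of 4 members are printed to show what lies at the start sites of the sensor, of 2 pumps that moved in opposite directions under dexamethasone, and of the classical AHR target CYP1A1. Each runs from 250 bases before to 50 bases after the start, 5′ to 3′ on the gene's strand, from RefSeq (GRCh38.p14). Capitals mark the core of the AHR-ARNT element, GCGTG on either strand (CACGC on the other). The hexamer AGAACA of glucocorticoid receptor elements, which reads TGTTCT on the other strand, was searched in the same way, and these 4 windows do not hold it.
AHR, chr7:17298402-17298701, plus strand: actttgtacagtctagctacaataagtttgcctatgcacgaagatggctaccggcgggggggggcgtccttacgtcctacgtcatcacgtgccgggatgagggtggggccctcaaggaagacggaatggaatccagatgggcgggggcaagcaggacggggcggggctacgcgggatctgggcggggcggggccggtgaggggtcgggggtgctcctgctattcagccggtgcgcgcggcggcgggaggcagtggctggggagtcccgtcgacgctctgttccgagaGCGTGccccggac
ABCC2, chr10:99782390-99782689, plus strand: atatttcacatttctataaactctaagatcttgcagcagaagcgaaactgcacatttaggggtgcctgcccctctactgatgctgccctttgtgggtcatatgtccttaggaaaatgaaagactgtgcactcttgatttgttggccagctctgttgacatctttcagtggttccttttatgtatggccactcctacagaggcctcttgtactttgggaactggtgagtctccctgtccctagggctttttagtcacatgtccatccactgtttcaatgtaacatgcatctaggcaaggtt
ABCC4, chr13:95301402-95301701, minus strand: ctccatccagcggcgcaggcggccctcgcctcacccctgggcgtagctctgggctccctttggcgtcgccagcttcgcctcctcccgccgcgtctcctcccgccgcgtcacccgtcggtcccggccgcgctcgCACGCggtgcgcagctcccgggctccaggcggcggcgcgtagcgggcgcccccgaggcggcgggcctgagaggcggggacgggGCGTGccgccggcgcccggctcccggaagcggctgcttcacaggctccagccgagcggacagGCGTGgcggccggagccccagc
CYP1A1, chr15:74725479-74725778, minus strand: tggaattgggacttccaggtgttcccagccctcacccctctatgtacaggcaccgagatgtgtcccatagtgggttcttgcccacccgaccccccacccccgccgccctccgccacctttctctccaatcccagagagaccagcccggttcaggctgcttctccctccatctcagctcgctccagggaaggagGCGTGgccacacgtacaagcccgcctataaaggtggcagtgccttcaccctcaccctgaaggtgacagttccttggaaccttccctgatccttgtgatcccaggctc
The AHR window holds 1 GCGTG, 38 bases after the start, and the CYP1A1 window holds 1, 57 bases before it. The ABCC4 window holds 3, and the ABCC2 window holds none. Over the 14 windows found for 8 members, 7 held GCGTG and 4 held AGAACA, the last in windows of NR1I2, CYP3A5 and ABCB1. Windows of ABCG2 among those with GCGTG overlap, so some sites are counted in more than 1 window. Among all 35116 promoters of the same length, 36.5% held GCGTG and 14.8% held AGAACA. A match of these letters is a description and not a binding site.

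The genes themselves lie on several chromosomes of GRCh38.p14. AHR spans chromosome 7 from 17298652 to 17346147 (47.5 kb) and POR lies on the same chromosome from 75915155 to 75986855. ABCC2 spans chromosome 10 from 99782640 to 99852594 (70.0 kb) and ABCG2 chromosome 4 from 88090264 to 88231626 (141.4 kb). ABCC4, at 281.6 kb the longest of the members, spans chromosome 13 from 95019835 to 95301451. CYP1B1 is 8.64 kb long on chromosome 2, and CYP3A5 is 31.8 kb long on chromosome 7.

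Signals were quantile normalized, and tests were made on log2(signal + 16) with limma, with adjustment by Benjamini-Hochberg over the 39744 probe sets tested and a call at an adjusted p under 0.05. The added 16 makes log2 differences and folds understate the change of dim probe sets. Deposited array medians ran from 14.8 to 24.5 and were highest with mifepristone (19.7 to 24.5). Of 9 airway and lung epithelial markers, 6 were above the 40th percentile of all 15 arrays (EPCAM, CDH1 and 4 keratins), while the lung factor NKX2-1 was above it on 0 arrays. In bulk RNA, fewer cells of a type and less RNA per cell cannot be told apart. The number of arrays limits the precision.

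AHR, the aryl hydrocarbon receptor, was lower with dexamethasone and higher again with each compound. Its signal (probe set 202820_at) was 183.5, 159.7 and 158.7 with dexamethasone, against 288.9, 331.6 and 291.4 in non-treated cells. All dexamethasone arrays lay below all non-treated arrays, and the mean fell to 167.3 ± 14.04 with dexamethasone, against 304 ± 24.0 in non-treated cells (SD, n = 3 each). The log2 difference was -0.80 (SE 0.11, 95% interval -1.03 to -0.58, limma adjusted p = 4.14e-05), or 1.75-fold lower.

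With mifepristone and dexamethasone AHR read 329.2, 287.2 and 240.5, all above the dexamethasone arrays and overlapping the non-treated ones. It was 1.64-fold higher than with dexamethasone alone (log2 difference 0.71, SE 0.11, limma adjusted p = 0.00026). The match polyamide gave 339.5, 358.3 and 293.3, again above every dexamethasone array, and the difference was 0.92 (SE 0.11, adjusted p = 1.15e-06), or 1.89-fold. The mismatch polyamide gave 221.9, 214.9 and 223.1, between the dexamethasone and the non-treated arrays with no overlap on either side.

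The mismatch difference from dexamethasone was 0.37 (SE 0.11, limma adjusted p = 0.0173). That call was lost without dexamethasone array 2 (adjusted p = 0.0644) or array 3 (0.0632), and with signals as deposited (0.0576) or scaled to the spike-in controls (0.129). Match exceeded mismatch by 0.55 (SE 0.11, limma adjusted p = 0.00115), a call lost with signals as deposited (0.197). The other 3 comparisons of AHR kept their call under all 25 alternatives run. The comparisons with dexamethasone share its 3 arrays, so a low or high dexamethasone value enters each of them.

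**Figure D1:**
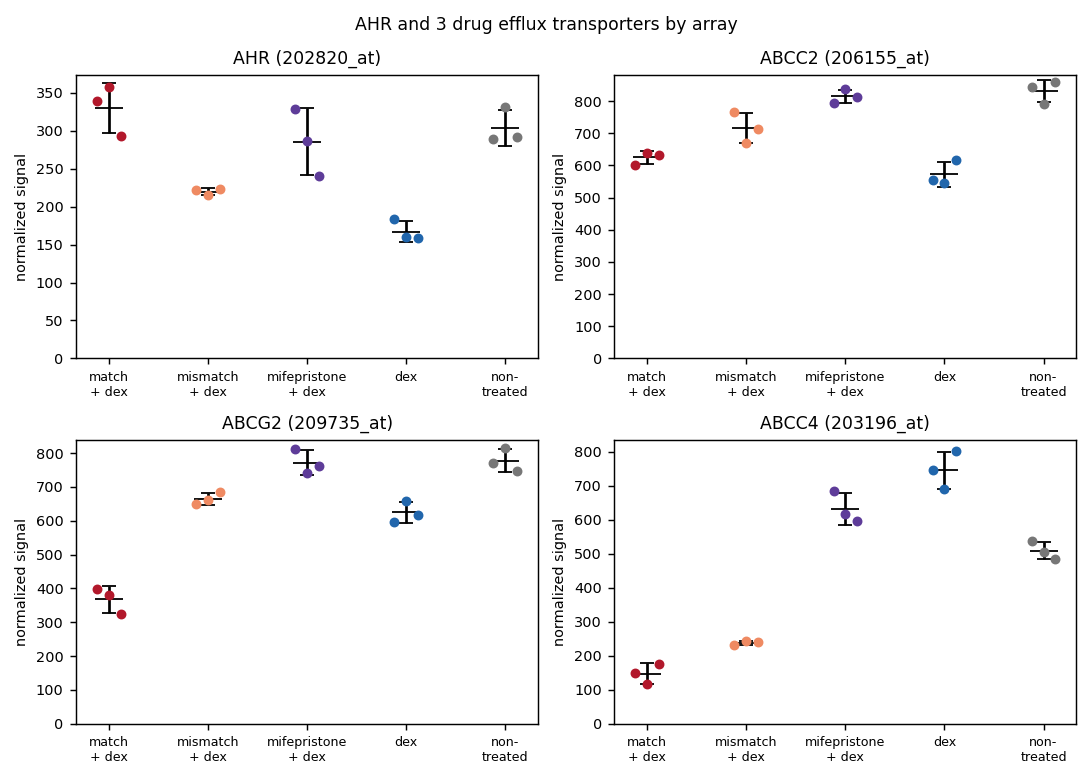
Quantile-normalized signal (linear axis from 0) of AHR and 3 drug efflux pumps on each of the 15 arrays, with points for arrays and bars for the mean and SD of 3 arrays. AHR and ABCC2 have their lowest mean with dexamethasone alone, ABCG2 is lowest with the match polyamide (323.5 to 399.6), and ABCC4 is lowest with both polyamides.

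ABCC2 and ABCG2, 2 pumps that export drugs and drug conjugates, were lower with dexamethasone and higher with mifepristone than with dexamethasone alone. ABCC2 (MRP2, 206155_at) read 555.1, 545.7 and 616.2 with dexamethasone, against 843.7, 792.3 and 858.5 in non-treated cells. The groups did not overlap, and ABCC2 was 1.44-fold lower with dexamethasone (log2 difference -0.53, SE 0.07, limma adjusted p = 2.97e-05), a call lost with signals as deposited (0.0891). With mifepristone it read 795.7, 837.2 and 811.5, above every dexamethasone array and within the non-treated range, a 1.41-fold difference from dexamethasone (0.50, SE 0.07, adjusted p = 8.65e-05).

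The match polyamide left ABCC2 at 601.8, 640.0 and 634.0, overlapping the dexamethasone arrays (0.13, 95% interval -0.02 to 0.27, limma adjusted p = 0.194). The mismatch polyamide gave 766.8, 671.4 and 712.1, all above dexamethasone (0.32, SE 0.07, adjusted p = 0.00188; 0.0943 with spike-in scaling). Match minus mismatch was -0.19 (95% interval -0.34 to -0.05, limma adjusted p = 0.0662), although every match array lay below every mismatch array. That difference passed the test without mismatch array 2 (0.0449), with a filter at the 60th percentile (0.0432) and with median centring (0.0108). In order of mean level, non-treated and mifepristone arrays overlapped at the top, mismatch arrays came next and apart, and match and dexamethasone arrays overlapped at the bottom.

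ABCG2 (breast cancer resistance protein, 209735_at) read 597.8, 659.2 and 618.0 with dexamethasone, against 770.7, 814.9 and 748.3 in non-treated cells. All dexamethasone arrays were lower, by 1.24-fold (log2 difference -0.31, SE 0.08, limma adjusted p = 0.0196). With mifepristone ABCG2 read 813.0, 740.5 and 763.1, all above dexamethasone (0.30, SE 0.08, adjusted p = 0.0324). Both calls depended on single arrays. The dexamethasone call was lost without dexamethasone array 1 (0.0969) or 3 (0.0652) or non-treated array 1 (0.0564) or 2 (0.108), and the mifepristone call without dexamethasone array 1 (0.14) or 3 (0.105) or any 1 mifepristone array (0.0547 to 0.165). The dexamethasone call was also lost with signals as deposited (0.708), with spike-in scaling (0.481) and without the variance trend (0.101). The mifepristone call was also lost with median centring (0.152) and without the variance trend (0.149).

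With the match polyamide ABCG2 read 399.6, 379.8 and 323.5, below every array of the other groups. The mismatch polyamide gave 649.8, 660.8 and 683.9, which overlapped dexamethasone (0.09, 95% interval -0.07 to 0.25, limma adjusted p = 0.486). Match was 1.68-fold lower than dexamethasone (-0.74, SE 0.08, adjusted p = 1.85e-07) and 1.78-fold lower than mismatch (-0.83, SE 0.08, adjusted p = 2.55e-07). Both match calls held under all 25 alternatives run.

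ABCC4 (MRP4), a pump that exports cyclic nucleotides, prostaglandins and drugs, went the other way under dexamethasone and fell with both polyamides. Its probe set 203196_at read 746.4, 692.3 and 801.5 with dexamethasone, against 536.8, 505.2 and 486.2 in non-treated cells. Every dexamethasone array was above every non-treated array, with a log2 difference of 0.54 (SE 0.11, limma adjusted p = 0.00286). This call was lost with signals as deposited (0.17) and with spike-in scaling (0.397).

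With mifepristone 203196_at read 685.5, 616.2 and 596.9, all below the lowest dexamethasone array, 692.3 (-0.23, 95% interval -0.46 to -0.01, limma adjusted p = 0.359). That order depended on the scaling, and over the alternatives the difference ran from -0.29 to 0.28. As deposited, the signals were 851.1, 839.5 and 651.0 with mifepristone and 738.8, 590.3 and 681.1 with dexamethasone, which overlap. The match polyamide gave 148.6, 116.2 and 176.4 and the mismatch polyamide 231.1, 243.1 and 240.5. Neither polyamide group overlapped any other group. Against dexamethasone the signal was 4.72-fold lower with match (-2.24, SE 0.11, adjusted p = 2.13e-12) and 3.00-fold lower with mismatch (-1.58, SE 0.11, adjusted p = 1.19e-09), and both calls held under all 25 alternatives. Match was also lower than mismatch (-0.66, SE 0.11, adjusted p = 0.000178), a call lost with spike-in scaling (0.102).

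The other probe sets of ABCC4 gave changes of other sizes. Probe set 1554918_a_at read 73.7, 55.8 and 65.4 with match, 103.6, 79.5 and 120.5 with mismatch, 288.2, 296.2 and 219.7 with dexamethasone, and 176.8, 159.5 and 154.6 in non-treated cells. Both polyamide groups lay below dexamethasone and non-treated arrays. Probe set 1554918_a_at fell by 1.81 on the log2 scale with match (SE 0.15, limma adjusted p = 9.89e-09), and its mismatch difference was -1.28 (adjusted p = 2.71e-06). For 1555039_a_at the differences were -1.25 with match (SE 0.18, adjusted p = 1.01e-05) and -1.02 with mismatch (adjusted p = 0.000191). Dexamethasone raised 1554918_a_at (0.65, SE 0.15, adjusted p = 0.0117), while 1555039_a_at was at 0.48 with an adjusted p of 0.156. The call on 1554918_a_at was lost without dexamethasone array 1 (0.0657) or 2 (0.0759) or non-treated array 2 (0.0506) or 3 (0.0569), with signals as deposited (0.101) and with spike-in scaling (0.249). Match minus mismatch was -0.52 for 1554918_a_at (adjusted p = 0.0206, lost without match array 2 or mismatch array 1 or 3, at 0.0644 to 0.113, and under 4 other alternatives, at 0.0517 to 0.323 with spike-in scaling) and -0.23 for 1555039_a_at (adjusted p = 0.442). Probe set 243928_s_at was dim, above the 40th percentile on 4 arrays only, and no comparison of it passed the test.

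ABCB1, the multidrug pump P-glycoprotein, was dim on both its tested probe sets. Probe set 209993_at ran from 0.914 to 20.1 and was above the 40th percentile on 3 arrays, and 243951_at ran from 5.69 to 19.3 and was above it on 7. Neither passed the test in any of the 5 comparisons. Their widest 95% intervals, for 209993_at, reached 0.64 log2 units to either side of the estimate, so differences within that range were not detectable here. These intervals were not adjusted for the number of probe sets tested, whereas calls were, so larger differences could also have been missed. The constant added before taking logs makes such log2 differences understate the change in signals this dim. Probe set 209994_s_at, annotated to both ABCB4 and ABCB1, ran from 1.25 to 11.9 and was not tested.

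CYP1A1 and CYP1B1 are P450 enzymes that AHR is known to induce. CYP1B1 was called lower with the mismatch polyamide on 1 of 3 tested probe sets, and CYP1A1 was too dim to test. The only CYP1A1 probe set (205749_at) ran from 0.642 to 8.29, below the 40th percentile of its array on all 15 arrays, and was not tested. CYP1B1 was measured on 3 tested probe sets, and a further one (202434_s_at, 0.767 to 5.79) was too dim. On 202437_s_at the signal was 294.5, 266.9 and 248.0 with match, 168.4, 230.2 and 205.5 with mismatch, 325.2, 350.6 and 277.7 with mifepristone, 270.8, 253.2 and 261.4 with dexamethasone, and 324.3, 319.0 and 308.2 in non-treated cells. Mismatch arrays were the lowest and lay below all dexamethasone arrays, while match arrays overlapped dexamethasone.

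Mismatch lowered CYP1B1 on 202437_s_at against dexamethasone (-0.36, SE 0.11, limma adjusted p = 0.0168), lost without dexamethasone array 1 (0.0584) or mismatch array 1 (0.12) and under 2 scalings (0.4 and 0.566). On 202436_s_at the mismatch arrays also lay below all dexamethasone arrays (-0.27, limma adjusted p = 0.0667). That difference passed without dexamethasone array 1 (0.0431) and with a filter at the 60th percentile (0.0436). On 202435_s_at the arrays overlapped (-0.28, limma adjusted p = 0.266). Match exceeded mismatch on 202437_s_at by 0.40 (SE 0.11, adjusted p = 0.0118) and on 202436_s_at by 0.46 (SE 0.10, adjusted p = 0.00349). The call on 202437_s_at was lost without match array 1 (0.0587) or mismatch array 1 (0.0864), with signals as deposited (0.488), with median centring (0.123) and with spike-in scaling (0.0639). That on 202436_s_at was lost with signals as deposited (0.299) and with median centring (0.0713). The dexamethasone differences of the 3 probe sets were -0.09, -0.09 and -0.26 and none passed the test, nor did the mifepristone differences of 0.25 to 0.28. With mifepristone all 3 passed with signals as deposited, at 0.69 to 0.70, and with spike-in scaling, at 0.75 to 0.77, where the medians of all probe sets were themselves 0.35 and 0.40 higher.

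**Figure D2:**
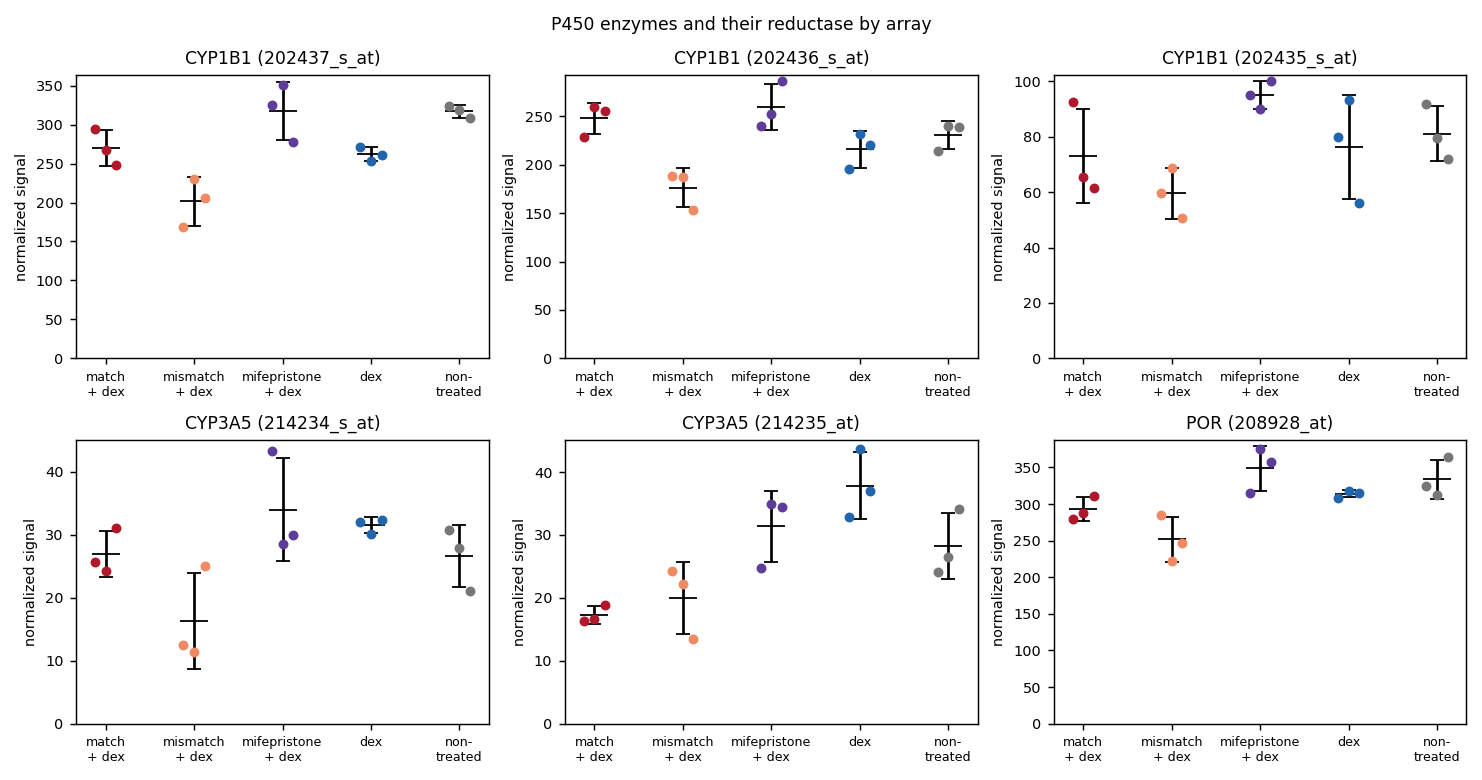
Quantile-normalized signal (linear axes from 0) of CYP1B1, CYP3A5 and POR probe sets on each array, with points for arrays and bars for the mean and SD of 3 arrays. Mismatch arrays have the lowest mean on 5 of the 6 probe sets, and on CYP3A5 214235_at the match arrays, at 16.3 to 18.9, have the lowest mean.

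CYP3A5, a P450 of the family that metabolises many drugs and steroids, was measured on 3 tested probe sets of modest signal, of which 214235_at was above the 40th percentile on all 15 arrays and 214234_s_at on 14. On 214235_at it read 16.3, 16.6 and 18.9 with match, 24.3, 22.1 and 13.5 with mismatch, 24.8, 34.9 and 34.4 with mifepristone, 32.9, 43.6 and 37.0 with dexamethasone, and 24.1, 26.5 and 34.1 in non-treated cells. Both polyamide groups lay below the dexamethasone arrays. The differences from dexamethasone were -0.69 with match (SE 0.17, limma adjusted p = 0.00391; 0.0991 with spike-in scaling) and -0.59 with mismatch (SE 0.17, adjusted p = 0.0169), the second lost without dexamethasone array 2 (0.0783) or mismatch array 3 (0.0957), with signals as deposited (0.107) and with spike-in scaling (0.083).

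The other CYP3A5 probe sets did not show the same. On 214234_s_at match arrays overlapped dexamethasone (-0.15, adjusted p = 0.609), and the mismatch difference of -0.58 (SE 0.18, limma adjusted p = 0.0266) was lost under 9 of the 25 alternatives, among them leaving out any 1 dexamethasone array (0.0538 to 0.068) or mismatch array 1 (0.101) or 2 (0.118), signals as deposited (0.185) and spike-in scaling (0.172). On 205765_at no comparison passed the test, with differences of 0.035 to 0.10 between the polyamides and from dexamethasone. Dexamethasone minus non-treated was 0.40, 0.16 and 0.29 on 205765_at, 214234_s_at and 214235_at, and none passed.

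POR, the reductase that supplies electrons to microsomal P450 enzymes, was called in 1 comparison. It read 279.2, 287.7 and 310.9 with match, 284.7, 222.6 and 247.4 with mismatch, 314.6, 374.5 and 357.3 with mifepristone, 308.7, 317.8 and 315.4 with dexamethasone, and 324.7, 312.6 and 363.6 in non-treated cells. Mismatch arrays lay below the dexamethasone arrays (-0.31, SE 0.10, limma adjusted p = 0.0235). This call was lost without dexamethasone array 2 (0.066) or 3 (0.058) or mismatch array 2 (0.133) or 3 (0.0612), under 3 scalings (0.0617 to 0.669) and without the variance trend (0.0552). The other 4 comparisons did not pass, except that mifepristone against dexamethasone did with signals as deposited (0.0211) and with spike-in scaling (0.0097), with dexamethasone minus non-treated at -0.08 (95% interval -0.28 to 0.12).

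Counted over the 16 tested probe sets, dexamethasone against non-treated called 5, with 2 higher (both ABCC4) and 3 lower (AHR, ABCC2 and ABCG2). The background over all probe sets tested was 4.85% changed, with 2.56% higher and 2.29% lower. The count was 3 without dexamethasone array 1 or non-treated array 2, 1 with signals as deposited and 2 with spike-in scaling. Mifepristone against dexamethasone called 3 higher (AHR, ABCC2 and ABCG2) and 0 lower by limma, against a background of 3.55% changed, 1.61% higher and 1.94% lower. At an unadjusted limma p under 0.05, 7 member probe sets differed with mifepristone, beside 4981 of the 39744 probe sets tested. With signals as deposited and with spike-in scaling 7 members were called, all higher, beside 8142 and 12838 of all probe sets tested.

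Match against dexamethasone called 6, with 1 higher (AHR) and 5 lower, against 30.8% of all probe sets changed, 15.9% higher and 14.9% lower. Mismatch against dexamethasone called 9, with 2 higher (AHR and ABCC2) and 7 lower, against 22.9% changed, 12% higher and 10.9% lower, and 5 without dexamethasone array 2, 4 with signals as deposited and 3 with spike-in scaling. Match against mismatch, the 1 pair of related compounds compared, called 6, with 3 higher (AHR and 2 of CYP1B1) and 3 lower (ABCG2 and 2 of ABCC4), against 16.9% changed, 7.47% higher and 9.38% lower, and 2 with signals as deposited and 3 with spike-in scaling. The share of members called with match, 37.5%, stood near the background of 30.8%. The median difference of the 16 member probe sets was -0.19 with match and -0.29 with mismatch, beside 0.03 and 0.02 over all probe sets tested. By gene, of 8 tested, match called 1 higher and 3 lower (ABCC4, ABCG2 and CYP3A5). Mismatch called 2 genes higher and 4 lower (ABCC4, CYP3A5, CYP1B1 and POR). ABCC4, CYP3A5 and CYP1B1 each entered with several probe sets, so the probe set counts and medians give these genes more weight.

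**Figure D3:**
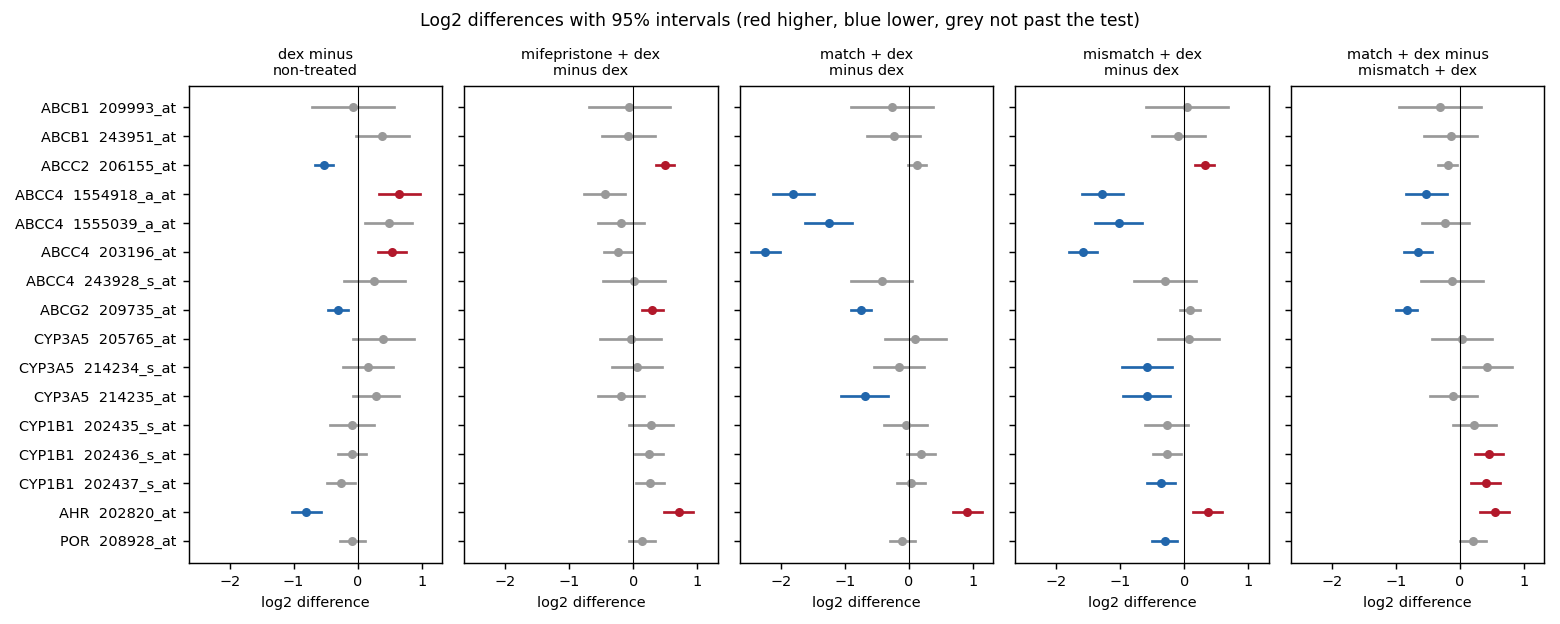
Log2 differences with 95% intervals of the 16 tested member probe sets in each comparison, as named above each panel, with red for higher, blue for lower and grey for not past the test. AHR is below 0 in the first panel (-0.80) and above 0 in the other 4, and ABCC4 203196_at is at -2.24 with match.

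Marker genes of several cell types, read here in 1 cell line, also differed between the polyamide and dexamethasone groups. The summed signal of 7 hepatocyte markers was 334 to 363 with match and 489 to 538 with mismatch, against 815 to 841 with dexamethasone. It was 651 to 710 in non-treated cells and 716 to 807 with mifepristone. Of the 7, 2 (FGB and CPS1) were above the 40th percentile on all arrays, with ALB above it on 2. The sum of 6 fibroblast markers was 278 to 324 with match and 192 to 241 with mismatch, against 130 to 187 with dexamethasone. It was 162 to 198 in non-treated cells and 160 to 215 with mifepristone. This sum came mostly from COL1A1, the 1 of the 6 above that percentile on all arrays. The 9 epithelial markers summed to 17517 to 20014 with match and 21956 to 22430 with mismatch, against 23665 to 24243 with dexamethasone. They summed to 20791 to 21617 in non-treated cells and to 19840 to 20778 with mifepristone, the latter overlapping match. Dexamethasone alone thus had the highest epithelial and hepatocyte sums. The epithelial sum came mostly from KRT18, KRT8 and KRT7, while EPCAM (152 to 724 over all arrays) and CDH1 (122 to 403) added little to it. Of 4 leukocyte markers, 0 were above the percentile on all arrays. Any link between these sums and the changes of ABCC4, ABCG2 and AHR was not tested.

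Genes of related pathways were counted from 8 lists, each gene by 1 probe set. In the AHR pathway list, 14 of 15 genes were tested, and dexamethasone called 1 higher and 1 lower, against a background of 3.2% of 16358 genes higher and 3.6% lower. TIPARP, an AHR-induced ADP-ribosyltransferase that represses AHR, rose by 1.39 (SE 0.09, limma adjusted p = 6e-10), to 669 ± 40.8 with dexamethasone, against 244 ± 9.62 in non-treated cells (SD, n = 3 each). NFE2L2, which encodes the antioxidant regulator NRF2, fell by 0.69 (adjusted p = 1.33e-08). Mifepristone moved both the opposite way, TIPARP by -1.08 and NFE2L2 by 0.64, against 2.53% of all genes higher and 2.76% lower.

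Match moved TIPARP by -1.07 and NFE2L2 by 0.94, and mismatch moved them by -0.55 and 0.35, all past the test. The mismatch calls were lost with spike-in scaling (0.106 for TIPARP and 0.057 for NFE2L2), and that of TIPARP also with signals as deposited (0.161). Over the list, match called 4 higher and 3 lower and mismatch 4 higher and 1 lower. The backgrounds were 21.5% of genes higher and 17.4% lower with match and 17.9% and 11.8% with mismatch. CYP2S1, a P450 of the AHR pathway, rose with both (1.33 and 1.19). ARNT, the partner of AHR, passed the test in 0 of the 5 comparisons.

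Among 20 tested ABC transporters outside the members, dexamethasone called 0 higher and 1 lower, beside 3.2% of all genes higher and 3.6% lower. The 1 was the multidrug pump ABCC1, which fell by 0.43 (limma adjusted p = 9.2e-05, against 0.288 with signals as deposited and 0.135 with spike-in scaling). ABCC1 rose with mifepristone (0.37, adjusted p = 0.000744) and fell with mismatch (-0.82) as with match (-0.52). With match 5 rose and 6 fell, and with mismatch 5 rose and 5 fell, beside 21.5% of all genes higher and 17.4% lower with match and 17.9% and 11.8% with mismatch. ABCC3, a pump for conjugates, was at -1.499 with match (adjusted p = 1.49e-10) and the peroxisomal transporter ABCD3 at -1.11. The peptide transporter TAP1 rose by 1.14 with match and by 1.32 with mismatch. Match against mismatch called 3 higher and 2 lower (ABCC3 at -1.07, ABCD3 at -0.70), against 9.43% of all genes higher and 13.5% lower.

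Uptake carriers were counted over 21 tested genes. Dexamethasone called 1 higher and 0 lower, beside 3.2% of all genes higher and 3.6% lower. The 1 was SLC22A5, the carnitine carrier, which rose by 1.16 (limma adjusted p = 5.51e-08). SLC22A5 was lower with mifepristone (-0.97, with an adjusted p of 0.0516 under spike-in scaling) and match (-0.96), while mismatch did not pass (0.08, adjusted p = 0.662). SLCO1B3, an organic anion uptake carrier, fell with match (-1.55) and mismatch (-1.06), and SLCO4A1 rose with match (0.94). With match 2 rose and 5 fell, beside 21.5% of all genes higher and 17.4% lower, and with mismatch 4 rose and 1 fell, beside 17.9% and 11.8%.

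Among 16 tested P450 enzymes outside the members, dexamethasone called 0 by limma, with 4 at an unadjusted p under 0.05. Over all genes it called 3.2% higher and 3.6% lower. Match called 5 higher and 3 lower, beside 21.5% of all genes higher and 17.4% lower. Mismatch called 4 higher and 0 lower (6 at an unadjusted p under 0.05), beside 17.9% and 11.8%. CYP4F11, a fatty acid hydroxylase, was at 1.54 and 1.55 in these comparisons. CYP2U1 fell with match (-1.25, limma adjusted p = 1.02e-05) and was at 0.01 with mismatch. In other phase I enzymes, the carboxylesterase CES1 rose with match (1.10) but not past the test with mismatch (0.12), and the amine oxidase MAOA rose with dexamethasone (1.27) and fell with match (-1.34). Of 26 such genes, 7 rose and 10 fell with match, beside 21.5% of all genes higher and 17.4% lower.

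Of 26 conjugating enzymes, 1 rose and 1 fell with dexamethasone, beside 3.2% of all genes higher and 3.6% lower. With match 2 rose and 8 fell, beside 21.5% and 17.4%. NNMT, a methyltransferase, rose by 0.88 with dexamethasone (limma adjusted p = 4.99e-11) and fell with match (-0.73) and mismatch (-0.77). Its fall with mifepristone (-0.27) turned to 0.02 with signals as deposited and 0.09 with spike-in scaling. Of 15 nuclear receptors and partners tested, 4 rose and 1 fell with dexamethasone and 1 rose and 7 fell with match, among them the coactivator NCOA2 (-1.73) and the receptor of dexamethasone, NR3C1 (-0.75).

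Genes that supply P450 enzymes with electrons and haem numbered 15 tested, and with match 7 rose and 3 fell, beside 21.5% of all genes higher and 17.4% lower. CYB5A, cytochrome b5, which can pass electrons to P450 enzymes, fell by 1.40 with match (limma adjusted p = 1.68e-12) and by 0.62 with mismatch (0.0639 with signals as deposited), whereas CPOX and UROD, enzymes of haem synthesis, rose with match (0.82 and 0.81). HMOX1, which degrades haem, fell by 1.54 with dexamethasone (adjusted p = 3.27e-08), rose by 1.38 with mifepristone and by 0.53 with match, and fell by 0.58 with mismatch.

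With match, the median log2 difference was 0.29 over the electron and haem genes, 0.22 over the P450 enzymes and -0.14 over the nuclear receptors, beside 0.05 over all 16358 genes. With mismatch these medians were 0.37, 0.23 and -0.23, beside 0.07 over all genes. With dexamethasone they were -0.06, -0.06 and 0.08, beside -0.04 over all genes. The medians of the other lists with match were nearer to that of all genes or on either side of it, from -0.10 to 0.09. The lists were chosen with earlier results of these arrays known, and some genes, such as CYP2S1, stand in more than 1 list.

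**Figure D4:**
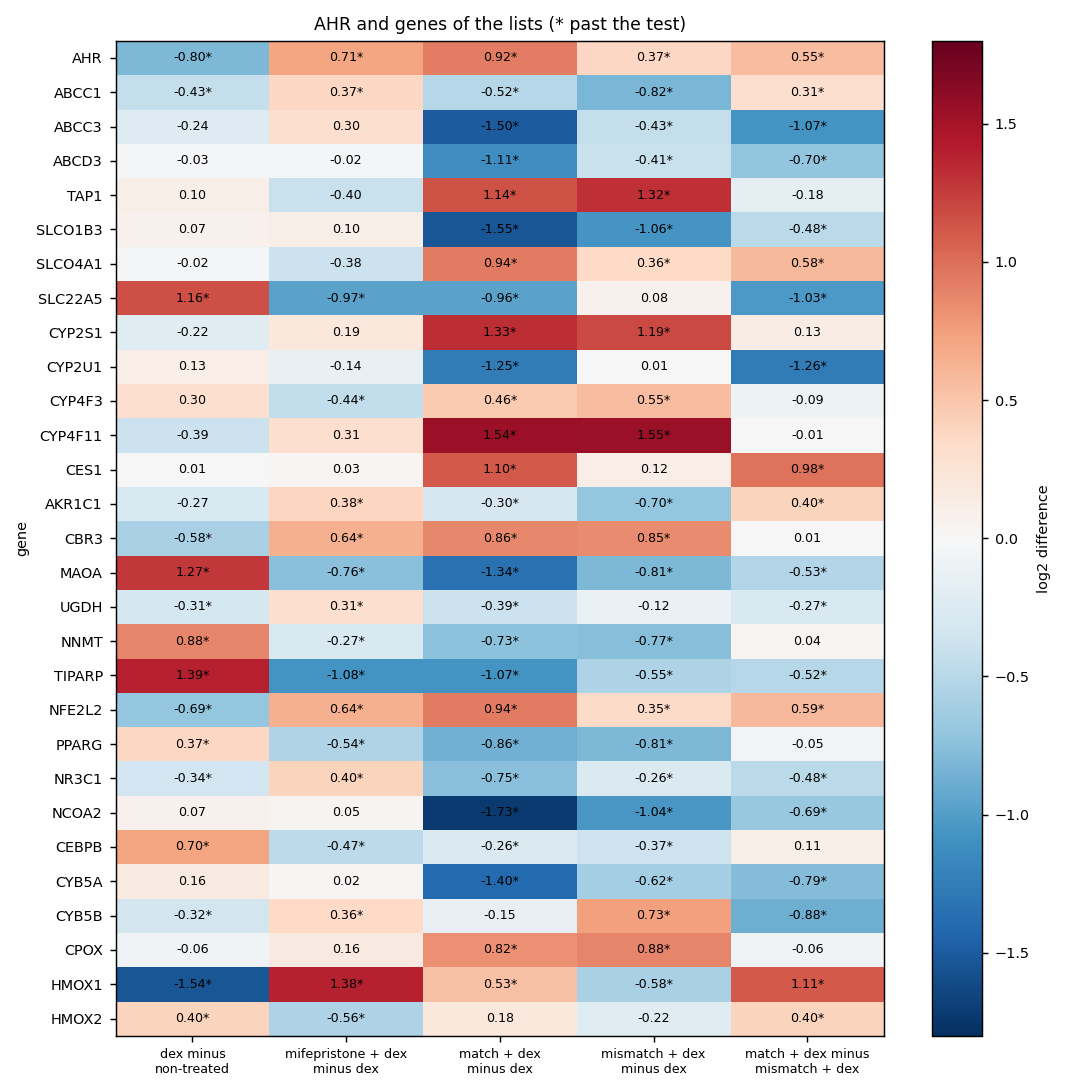
Log2 differences (colour and number) of AHR and of the 28 genes of the lists that were named and passed the test in at least 2 comparisons, with columns for the 5 comparisons and * for an adjusted p under 0.05. In the dexamethasone column AHR is at -0.80, NFE2L2 at -0.69 and TIPARP at 1.39.

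The genes with the pattern most like a member's were found from the 5 centred group means of log2 signal over 16357 other genes. For AHR these were SRC, a tyrosine kinase (root mean square difference 0.043 log2 units), GCLM, the modifier subunit of the enzyme that starts glutathione synthesis (0.044), and NFE2L2 (0.048). For ABCC4 203196_at they were NRCAM (0.07), RASAL2 and GLIS3 (0.106 each), for ABCC2 LINC02402 (0.018), MOSPD1 (0.02) and TMC2 (0.025), and for ABCG2 ZCCHC7 (0.042), CCDC191 and AGPS (0.046 and 0.047). For POR they were ITIH4 (0.016), ZC3H4 and PERP (0.03 each). The other called ABCC4 probe sets had other nearest genes. These were NFIA, CCNY and PTPN14 for 1554918_a_at, and CRYAB, ADAMTS15 and OSBPL8 for 1555039_a_at. The own means spanned 0.92 log2 units for AHR, 2.24 for ABCC4 203196_at, 0.53 for ABCC2, 1.05 for ABCG2 and 0.45 for POR. Whether such genes are regulated together was not tested.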

How the data were processed

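The authors deposited 1 linear signal intensity for each probe set on each array, and the submitters' processing notes name MAS5 as the tool. Its version, scaling target and detection calls are not stated. Signals of all probe sets were quantile normalized over the 15 arrays, and the 62 control probe sets were then left out of tests. Probe sets were named from the platform annotation, in which 41097 carried 1 symbol, 1801 several and 11777 none. Tests took the 39744 of 54675 probe sets whose signal exceeded the 40th percentile of the array on 3 or more arrays. The percentile was at first taken without the control probe sets and was changed after results were seen, and the member counts stayed the same. limma 3.58.1 (R 4.3.3) was fitted to log2(signal + 16) over all 15 arrays with 1 coefficient per group and a variance trend (10 residual and 9.36 prior degrees of freedom). The 5 comparisons were each adjusted by Benjamini-Hochberg over all probe sets tested. Fits were tested on simulated data. For the lists, a gene was represented by its brightest probe set (not an _x_at one where another existed), and up to 3 genes with the smallest adjusted p in each list and comparison were named. Arrays have no read depth, so their number limits the precision. The 10 alternatives and the 15 fits that leave out 1 array are given in the closing section. The members and lists were chosen with earlier results of these data known. Compound groups were not tested against non-treated cells, and only their values and overlap are given.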

Additional observations from a re-analysis of the deposited data

How the results depend on the processing

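Over 10 alternatives and 15 fits without 1 array, 1880 values for single member probe sets kept their side of the threshold. A call was lost by 70 and gained by 15, and 0 called values changed sign. Changes of sign among differences called in neither fit were not counted, and such differences are among the 1880. With signals as deposited the member calls numbered 1 with dexamethasone, 7 with mifepristone, 4 with mismatch and 2 for match against mismatch, and with spike-in scaling 2, 7, 3 and 3. Under the same scalings the median of all probe sets with mifepristone shifted by 0.35 and 0.40 on the log2 scale. Over all probe sets, signals as deposited called 814 with dexamethasone (564 higher, 250 lower; 1927 in the reported fit), 8142 with mifepristone (7910 higher, 232 lower; 1411), 7978 with match (12252) and 3094 for match against mismatch (556 higher, 2538 lower; 6697), and with mismatch 4474 rose and 1763 fell. Spike-in scaling called 767 with dexamethasone, 12838 with mifepristone (12616 higher, 222 lower), 4624 with mismatch (9109) and 2847 for match against mismatch (2135 higher, 712 lower), and with match 8217 rose and 2668 fell. Median centring split match into 3775 higher and 7231 lower, and match against mismatch into 1278 and 5236. Without 1 array, member calls ranged from 3 to 5 with dexamethasone, 2 to 3 with mifepristone, 6 to 6 with match, 5 to 9 with mismatch and 4 to 7 for match against mismatch. All calls ranged from 1430 to 2031 with dexamethasone, 1006 to 1483 with mifepristone, 10811 to 12334 with match, 7530 to 9370 with mismatch and 5384 to 6756 for match against mismatch. Same-numbered arrays were not paired by the labels, and their deviations correlated at -0.08 to 0.12. With the replicate block the member calls were 5, 3, 6, 9 and 6, and all calls 1922, 1433, 12239, 9110 and 6712. For 45 list genes, checked by alternatives chosen after seeing the data, 60 of 100 calls held throughout. With mifepristone CYP4F3 (-0.44) turned to 0.0043 as deposited and 0.069 with spike-in scaling, and NNMT (-0.27) to 0.022 and 0.092. The causes were not tested. Doses, the lack of a named vehicle group and the unknown origin of the 3 arrays limit what any difference can be tied to, and low signals limit what can be read for ABCB1 and CYP1A1.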
